A study of Mus musculus with 6 samples.

Results

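The genes described here are the peroxiredoxins Prdx1, Prdx2, Prdx3, Prdx4, Prdx5 and Prdx6, the glutathione peroxidases Gpx1 and Gpx4, and the superoxide dismutases Sod1 and Sod2. They were taken by symbol and not by a threshold on measured values, but earlier results of these data were known when they were chosen. All 10 were among the 23951 genes of the deposited count table and among the 12204 genes that passed the filter on low counts. RNA was measured in mouse fetal liver cells that the labels call haematopoietic stem cells (HSCs), all of C57BL/6 strain. One group carried a knockout of Uqcrfs1 (KO, 3 libraries) and the other was wild type for it (WT, 3 libraries). The protein it encodes, RISP (the Rieske iron-sulfur protein), belongs to respiratory complex III. How the cells were isolated, the embryonic age, the deleted part of the gene, any Cre driver, and whether libraries came from separate embryos or litters are not given in the sources in use here. The p-values therefore reflect the spread among these 6 libraries, part of which may be technical.

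Superoxide dismutases turn superoxide, which the respiratory chain and NADPH oxidases release, into hydrogen peroxide. Peroxiredoxins and glutathione peroxidases then reduce that peroxide: most peroxiredoxins are recycled by thioredoxin, and glutathione peroxidases use glutathione and carry selenocysteine at their active site. The enzymes are divided by compartment. Prdx1, Prdx2, Prdx6, Gpx1 and Sod1 act mainly in the cytosol, Prdx3 and Sod2 in the mitochondrial matrix, Prdx4 in the endoplasmic reticulum, and Prdx5 and Gpx4 in several compartments. Blood stem cells are sensitive to oxidants, and red cells hold large amounts of Prdx2, Gpx1 and catalase.

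Total counts were 14313927, 14590844 and 12020128 in KO replicates 1 to 3, and 10191354, 10943143 and 13189329 in WT replicates 1 to 3. Levels are given as CPM, counts scaled to a common library size with TMM factors, and differences as log2 fold changes of KO over WT from edgeR, adjusted by Benjamini-Hochberg over the 12204 genes with a threshold of 0.05. Uqcrfs1 had 4.33, 3.40 and 3.08 CPM in KO libraries and 77.3, 122.9 and 61.0 CPM in WT libraries, a log2 fold change of -4.59 with a standard error (SE) of 0.29 (edgeR, adjusted p = 4.11e-09). Stem cell markers were present in every library, with Kit at 529 to 619 CPM in KO and 662 to 837 CPM in WT. Short transcripts tended to be lower and long ones higher in KO, and the summed markers of several other cell types, red cells among them, were at lower levels in KO, while those of mast cells and basophils were at higher levels. Values for both stand beside the results they touch. In such bulk samples, fewer cells of a type and less RNA per cell cannot be told apart.

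Transcripts of 3 of the 4 cytosolic peroxide-reducing enzymes were lower in KO HSCs, and the other, Prdx6, did not pass the test. Gpx1, Prdx1 and Prdx2 lay at 57.4%, 59.8% and 61.0% of their WT means, and Prdx4 of the endoplasmic reticulum lay at 62.7%. Sod1 was lower by less, at 76.3% of WT, and its call was kept in 1 of 6 fits that each left out 1 library. No member was higher, and none of the pair in the mitochondrial matrix, Prdx3 and Sod2, passed the test. Of all genes tested, 4.99% were lower. In a fit with offsets for GC content and the transcript length implied by the deposited values, only Gpx1 and Prdx2 kept their calls. With annotated lengths instead, all of the called members but Sod1 kept theirs.

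Gpx1, the most abundant glutathione peroxidase of most cells, had 459, 395 and 443 CPM in KO libraries and 718, 705 and 836 CPM in WT libraries. Every KO library lay below every WT library, with a wide gap between the groups. Its log2 fold change was -0.80 with an SE of 0.10 and a 95% interval of -1.02 to -0.58 (edgeR, adjusted p = 3.37e-05). The call was kept in 6 of 6 fits that each left out 1 library, with adjusted p up to 0.00114.

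Prdx2, the peroxiredoxin best known as a major protein of red cells, had 132, 105 and 124 CPM in KO libraries and 194, 190.5 and 208 CPM in WT libraries. The WT libraries lay close together and all above the KO libraries. The log2 fold change was -0.71 with an SE of 0.13 and a 95% interval of -0.98 to -0.45 (edgeR, adjusted p = 0.000946). It was kept in 6 of 6 fits that left out 1 library. In the GENCODE annotation the gene overlaps Rnaseh2a and Junb on the opposite strand. No source in use here gives the strand setting of the counting, so reads of such partners cannot be told apart.

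Prdx1, a cytosolic peroxiredoxin and a classical target of the oxidant sensor NRF2, had 129, 114 and 94.3 CPM in KO libraries and 162, 179 and 222 CPM in WT libraries. The groups did not overlap, although KO replicate 1 and WT replicate 1 were nearer to each other than for Gpx1. The log2 fold change was -0.74 with an SE of 0.15 and a 95% interval of -1.05 to -0.43 (edgeR, adjusted p = 0.00222), and the call was kept in 6 of 6 fits that left out 1 library.

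Sod1, the copper-zinc superoxide dismutase, had 246, 227 and 259 CPM in KO libraries and 288, 352 and 320 CPM in WT libraries. The groups stood apart, with KO replicate 3 and WT replicate 1 nearest. The log2 fold change was -0.39 with an SE of 0.11 and a 95% interval of -0.62 to -0.16 (edgeR, adjusted p = 0.0272). This call rested on all libraries together: it was kept in 1 of 6 fits that left out a library, the one without WT replicate 1, and the adjusted p was 0.0648 without KO replicate 1, 0.156 without KO replicate 2, 0.0533 without KO replicate 3, 0.118 without WT replicate 2 and 0.0577 without WT replicate 3. Sod1 overlaps Scaf4 on the opposite strand.

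Prdx6, the 1-cysteine peroxiredoxin that reduces phospholipid peroxides with glutathione, had 196, 167 and 162 CPM in KO libraries and 202, 239 and 166 CPM in WT libraries. The groups overlapped. Its log2 fold change of -0.21 had an SE of 0.14 and a 95% interval of -0.49 to 0.08 (edgeR, adjusted p = 0.378). That interval does not reach the fall measured for Gpx1, but the difference between these members was not tested.

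**Figure D1:**
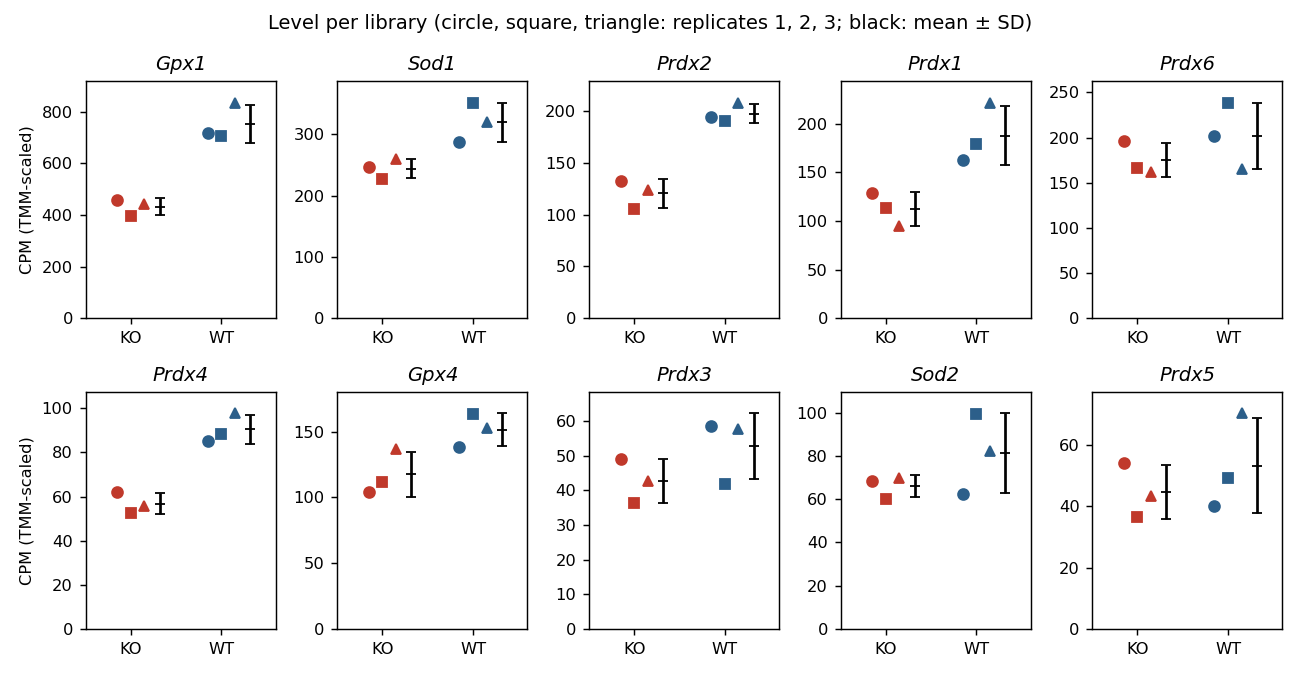
Level of each of the 10 genes in each library, in CPM on TMM-scaled library sizes, with the axis of each panel starting at 0; KO libraries stand left and WT libraries right, symbols mark replicates, and black bars give mean ± SD (n = 3 each). The KO points of Gpx1, Prdx2, Prdx1, Prdx4, Sod1 and Gpx4 lie below all WT points of the same gene.

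Prdx4, the secretory-pathway peroxiredoxin that reduces peroxide made during protein folding, had 61.9, 52.5 and 55.6 CPM in KO libraries and 85.1, 88.4 and 97.8 CPM in WT libraries. The groups did not overlap. The log2 fold change was -0.67 with an SE of 0.17 and a 95% interval of -1.02 to -0.33 (edgeR, adjusted p = 0.0107). Without KO replicate 2 the adjusted p was 0.066. The gene is X-linked, and libraries differed in sex-linked counts, so a fit with a covariate for Y-linked counts was added, which gave -0.68 (adjusted p = 0.0116).

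The matrix enzymes showed smaller differences that did not exceed the spread between libraries. Prdx3, the main peroxiredoxin of mitochondria, had 49.1, 36.3 and 42.8 CPM in KO libraries and 58.7, 41.9 and 57.8 CPM in WT libraries. WT replicate 2 lay within the KO values. Its log2 fold change was -0.31 with a 95% interval of -0.74 to 0.13 (edgeR, adjusted p = 0.403).

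Sod2, the manganese superoxide dismutase, had 68.6, 60.0 and 69.6 CPM in KO libraries and 62.3, 99.3 and 82.1 CPM in WT libraries. WT replicate 1 lay among the KO libraries. The log2 fold change was -0.30 with a 95% interval of -0.68 to 0.08 (edgeR, adjusted p = 0.336). For both matrix genes the interval includes no change and falls as large as those of Sod1 and Prdx4. The interval of Prdx3 also includes the falls of Prdx1 and Prdx2.

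Of the enzymes found in several compartments, Gpx4, which reduces lipid peroxides in membranes and holds off ferroptosis, had 104, 112 and 137 CPM in KO libraries and 138, 163 and 153 CPM in WT libraries. The groups did not overlap, but KO replicate 3 and WT replicate 1 nearly met. The log2 fold change was -0.37 with an SE of 0.14 and a 95% interval of -0.66 to -0.07 (edgeR, adjusted p = 0.0985), and it missed the threshold in each of the 6 fits that left out 1 library.

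Prdx5, found in mitochondria, peroxisomes and cytosol, had 54.0, 36.3 and 43.4 CPM in KO libraries and 40.1, 49.3 and 70.3 CPM in WT libraries. The groups overlapped widely, and its log2 fold change was -0.26 with a 95% interval of -0.73 to 0.22 (edgeR, adjusted p = 0.534). The gene overlaps Trmt112 on the opposite strand.

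In all, 5 of 10 members were lower, against 4.99% of all genes tested, and 0 were higher, against 6.41%. At an unadjusted p under 0.05, 6 were lower and 0 higher (edgeR), and DESeq2 called 5 lower and 0 higher. All 3 KO libraries lay below all 3 WT libraries in 6 of 10 members, against 14.5% of all genes tested. All 10 log2 fold changes were negative, against 52.0% of all genes. The median over the 10 members was -0.38, against -0.02 over all genes. By compartment, 4 of 5 cytosolic genes, 1 of 1 gene of the endoplasmic reticulum, 0 of 2 matrix genes and 0 of 2 genes of several compartments were lower. At an unadjusted p under 0.05, 0 matrix genes and Gpx4 of the last pair were lower, and DESeq2 called 0 in both. A difference between compartments was not tested. With limma on log2(RPKM + 1), 4 members were lower with the filter on low values and 0 without it, where Gpx1 had an adjusted p of 0.0519 and 6 members were lower at an unadjusted p under 0.05. Over all genes, limma called 235 of 12204 lower with the filter and 50 of 16277 without it.

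Most of the members have short transcripts. The length behind each gene's RPKM was read from the deposited counts and RPKM values, and was 474 nt for Sod1, 614 nt for Prdx5, 725 nt for Prdx4, 858 nt for Prdx2, 860.0 nt for Gpx4, 914 nt for Prdx1, 1012 nt for Prdx3, 1036 nt for Gpx1, 1606 nt for Prdx6 and 2393 nt for Sod2. These implied lengths are approximate, since the deposited counts and RPKM values did not follow from a single length per gene. Car2, for example, had 2835 counts and 134 RPKM in KO replicate 1, but 1977 counts and 46.7 RPKM in KO replicate 3. Annotated principal transcripts of the members were longer, with 5.02% of genes lower within the members' range of annotated length. Over all tested genes in 10 groups of rising implied length, the median log2 fold change was -0.28 in the shortest group and 0.25 in the longest. In the shortest group 9.84% of genes were lower and 1.31% higher, against 2.88% lower and 21.3% higher in the longest. The slope of mean-centred log2 CPM per doubling of annotated length was 0.024, 0.043 and 0.024 in KO replicates 1 to 3. In WT replicates 1 to 3 it was -0.00053, -0.081 and -0.009, with WT replicate 2 furthest from 0 of all libraries.

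Among the 4724 tested genes within the members' range of implied length, 6.03% were lower and 2.31% higher, and the median log2 fold change was -0.13. Among the 1010 genes within the range of the 5 members called, 474 to 1036 nt, 8.42% were lower, 1.19% were higher and the median was -0.23. All 5 members called lay further below 0 than that median. They were picked because they were called lower, so this comparison cannot set them apart from the length trend. All KO libraries were below all WT libraries in 17.8% of genes within the members' range, and 60.3% of these genes had a negative log2 fold change.

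With offsets per library for implied length and GC content, 2 members were lower, against 3.97% of all genes in that fit. Gpx1 had a log2 fold change of -0.76 (edgeR with offsets, adjusted p = 5.9e-05) and Prdx2 of -0.54 (adjusted p = 0.00818). Prdx1 was at -0.48 (adjusted p = 0.0509) and Prdx4 at -0.47 (adjusted p = 0.0711), and both missed the threshold. Sod1, the shortest, was at -0.15 (adjusted p = 0.423). The median over the 10 members was then -0.25, against -0.01 over all genes. With lengths of annotated principal transcripts in place of implied ones, 4 members were lower, against 4.25% of all genes in that fit, and Sod1 was at -0.24 (adjusted p = 0.159).

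**Figure D2:**
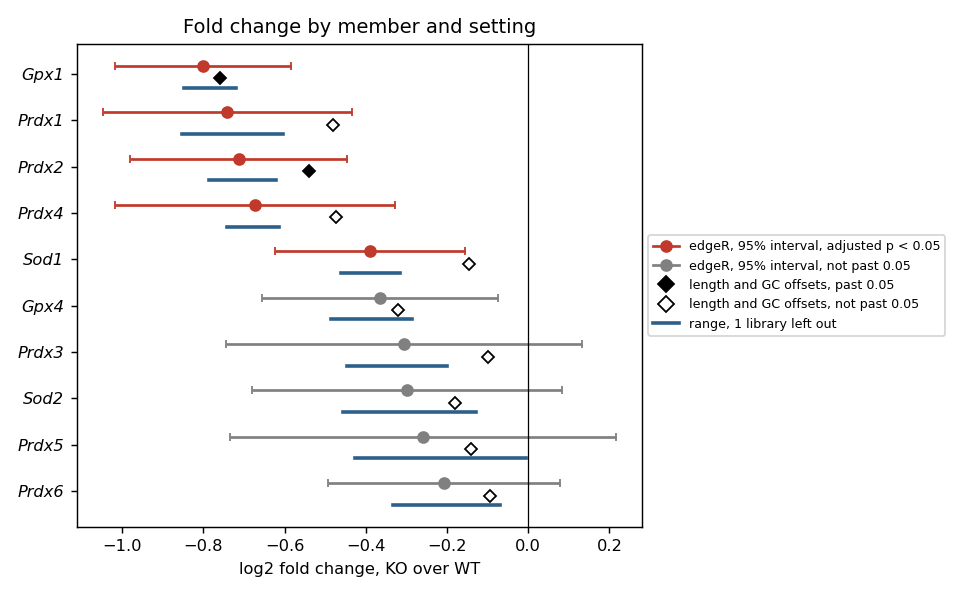
Log2 fold change of each of the 10 genes, KO over WT. Circles with bars are edgeR values with their 95% intervals (n = 3 each), diamonds the values with implied length and GC offsets, and blue lines the range when 1 library is left out. All 10 circles lie below 0, at -0.80 for Gpx1 and -0.21 for Prdx6 at the ends, the intervals of Prdx3, Sod2, Prdx5 and Prdx6 include 0, and every diamond lies nearer to 0 than its circle.

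**Figure D3:**
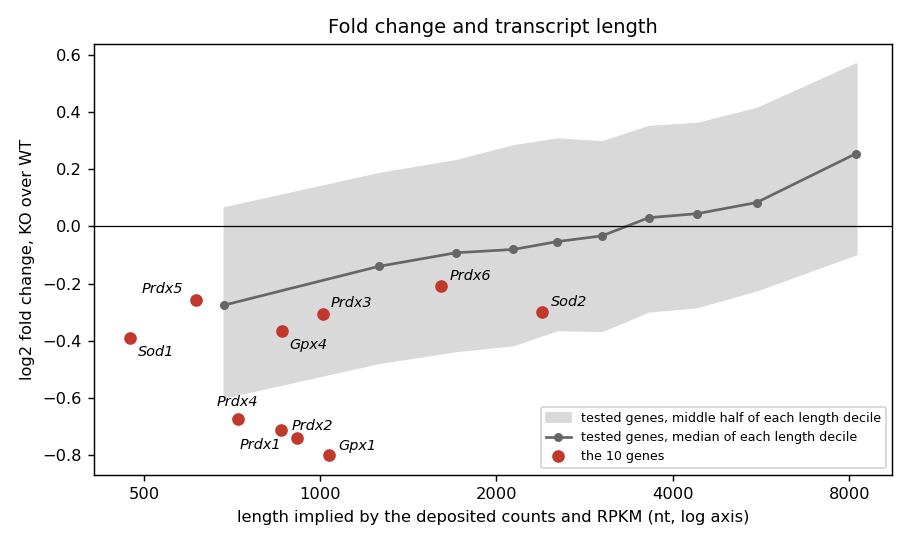
Log2 fold change of KO over WT (edgeR) against the length implied by the deposited counts and RPKM values (nt, log axis); the grey line joins the medians of tested genes in 10 groups of rising length, the grey band holds their middle 50%, and red points are the 10 genes. The grey line runs upward from -0.28 to 0.25, and Gpx1, Prdx1, Prdx2 and Prdx4 lie below the band while the other members near their lengths lie within or beside it.

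Promoter sequence is shown for the 4 cytosolic genes that were lower together, since NRF2 acts through the antioxidant response element and Prdx1 is among its known targets. The sequences are the 250 bases before the RefSeq start site in build GRCm38.p6, 5′ to 3′ on the plus strand of chr9:108338830-108339079 for Gpx1, chr8:84969372-84969621 for Prdx2, chr4:116685349-116685598 for Prdx1 and chr16:90220512-90220761 for Sod1. All 4 genes lie on the plus strand. Capitals mark matches of the element's core, TGACNNNGC on either strand.
Gpx1: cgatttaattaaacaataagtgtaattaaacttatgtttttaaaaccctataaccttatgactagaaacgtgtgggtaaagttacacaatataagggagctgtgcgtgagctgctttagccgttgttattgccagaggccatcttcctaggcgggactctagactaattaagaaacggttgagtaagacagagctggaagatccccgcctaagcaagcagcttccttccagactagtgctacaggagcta
Prdx2: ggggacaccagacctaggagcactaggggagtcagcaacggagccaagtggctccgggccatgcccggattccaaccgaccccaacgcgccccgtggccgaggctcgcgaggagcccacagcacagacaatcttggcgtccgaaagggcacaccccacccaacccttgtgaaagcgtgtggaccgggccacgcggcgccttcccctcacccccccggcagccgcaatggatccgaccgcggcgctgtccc
Prdx1: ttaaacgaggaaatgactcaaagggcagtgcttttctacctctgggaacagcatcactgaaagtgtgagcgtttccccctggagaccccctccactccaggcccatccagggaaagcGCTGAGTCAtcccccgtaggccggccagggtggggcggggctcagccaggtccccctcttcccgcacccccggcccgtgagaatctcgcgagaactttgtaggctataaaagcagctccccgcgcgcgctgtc
Sod1: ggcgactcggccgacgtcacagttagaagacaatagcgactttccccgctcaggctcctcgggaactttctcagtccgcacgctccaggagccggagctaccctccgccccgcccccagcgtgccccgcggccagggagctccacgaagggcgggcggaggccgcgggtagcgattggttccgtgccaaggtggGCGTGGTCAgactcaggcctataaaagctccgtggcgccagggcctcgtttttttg

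The core was found in Prdx1 from base -133 to -125 and in Sod1 from -56 to -48, both on the minus strand, counted from the start site. It was found in 2 of 9 members with a window, which had 12 windows in all, and in 10.2% of 32851 windows of the same length. The first count is per gene and the second share is per window. The AP-1 site TGACTCA was found in Prdx1 only, at -237 to -231 and at -131 to -125, where it overlaps the core, and in 4.46% of windows. Neither the FOXO site GTAAACA, found in 3.17% of windows, nor the ATF4 composite element TGATGNAAT, found in 0.816%, was found in the windows of the 9 members. Gpx1 and Prdx2, the members that were lower both in the main fit and with implied length offsets, held none of these letters in their windows. With annotated length offsets, Prdx1, which holds the core, and Prdx4 were lower as well. A match is not evidence of binding, and the lack of one says nothing of the factor.

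Per length, the members covered a wide range of levels in both groups. On the deposited RPKM scale, Gpx1 and Sod1 stood far above the others. Gpx1 had 430, 377 and 480 RPKM in KO libraries and 678, 681 and 776 RPKM in WT libraries. Sod1 had 522, 476 and 568 RPKM in KO libraries and 607, 711 and 672 RPKM in WT libraries. By mean level Sod1 led in KO and Gpx1 led in WT, and within each group the ranges of these neighbours overlapped.

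The ratio of Gpx1 to Sod1 in RPKM was 0.822, 0.792 and 0.845 in KO libraries and 1.12, 0.959 and 1.15 in WT libraries. The groups did not overlap. The exact two-sided permutation test gave p = 0.1, the smallest that 3 against 3 libraries allow, and 0.2 after adjustment over 6 ratios. The other 5 ratios, formed between pairs of members chosen by role, had exact permutation p from 0.1 to 0.7.

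Below these, the order in KO by mean RPKM was Prdx2 (146), Gpx4 (138), Prdx1 (119), Prdx6 (111), Prdx4 (78.3), Prdx5 (71.7), Prdx3 (41.1) and Sod2 (27.4). In WT it was Prdx2 (223), Prdx1 (207), Gpx4 (175), Prdx4 (124), Prdx6 (123), Prdx5 (87.4), Prdx3 (52.9) and Sod2 (34.1). In KO, neighbours from Prdx2 to Prdx6 overlapped, as did Prdx4 and Prdx5, while Gpx1 against Prdx2, Prdx6 against Prdx4, Prdx5 against Prdx3, and Prdx3 against Sod2 did not. In WT, neighbours from Prdx2 to Gpx4 and from Prdx4 to Prdx5 overlapped, while Gpx4 against Prdx4, Prdx5 against Prdx3, and Prdx3 against Sod2 did not. The matrix pair was lowest in both groups. Summed over the 10 genes in CPM, the level was 1501, 1304 and 1431 in KO libraries and 1949, 2108 and 2213 in WT libraries, with no overlap.

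Summed markers of several other cell types were also lower in KO, while those of mast cells and basophils were higher. The summed level of the erythroid list was 259, 199 and 238 CPM in KO libraries and 947, 627 and 540 CPM in WT libraries. Of 10 tested genes 6 were lower and 0 higher, where 4.99% and 6.41% of all genes are the shares to set beside marker counts. The list was not uniform: Epor was at 0.67 (edgeR, adjusted p = 0.427) and Gata1 at -0.28 (adjusted p = 0.731). Alas2, the haem synthesis enzyme of red cell precursors, had 5.77, 4.19 and 10.6 CPM in KO libraries and 72.3, 42.1 and 41.6 CPM in WT libraries. Of the list, 5 globin genes had 0 counts in all 6 libraries. The deposited RPKM values listed globins nonetheless, with Hbb-bs at 146, 215 and 93.9 RPKM in KO libraries and 3330, 2854 and 2295 RPKM in WT libraries.

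Macrophage markers summed to 159, 92.7 and 108 CPM in KO libraries and 367, 203 and 1195 CPM in WT libraries, with 2 of 13 lower. Endothelial markers summed to 254, 188 and 214 CPM in KO libraries and 435, 273 and 1105 CPM in WT libraries, with 1 of 8 lower. WT replicate 3 stood above the other WT libraries in both lists. Without WT replicate 3, Gpx1, Prdx1, Prdx2 and Prdx4 were still lower. In that fit the marker difference stayed too, since the sums of WT replicates 1 and 2 also lay above every KO sum in both lists. Granulocyte markers summed to 250.4, 261 and 226 CPM in KO libraries and 556, 522 and 401 CPM in WT libraries, with 1 of 9 lower, and hepatoblast markers to 71.5, 67.1 and 119 CPM in KO libraries and 172, 129 and 205 CPM in WT libraries, with 2 of 9 lower. Mast cell and basophil markers were few, at 20.1, 9.59 and 51.0 CPM in KO libraries and 2.10, 6.05 and 7.25 CPM in WT libraries, with 1 of 3 tested genes higher. This was Prss34, a mast cell and basophil protease, at 4.45 (edgeR, adjusted p = 0.00334), a call lost without KO replicate 3. The stem cell list itself summed to 2202, 2093 and 2028 CPM in KO libraries and 2968, 2518 and 2414 CPM in WT libraries. Of its 12 genes 5 were lower, among them Kit, Cd34 and Hlf, and 0 higher, against 4.99% and 6.41% of all genes. The calls of Kit, Cd34 and Hlf were kept in 2, 5 and 3 of 6 fits without 1 library, and lost with limma on RPKM values. Mecom, Procr and Ptprc went the other way, at 0.03, 0.08 and 0.20, and were not called. What part cell makeup has in the falls of the members was not tested.

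**Figure D4:**
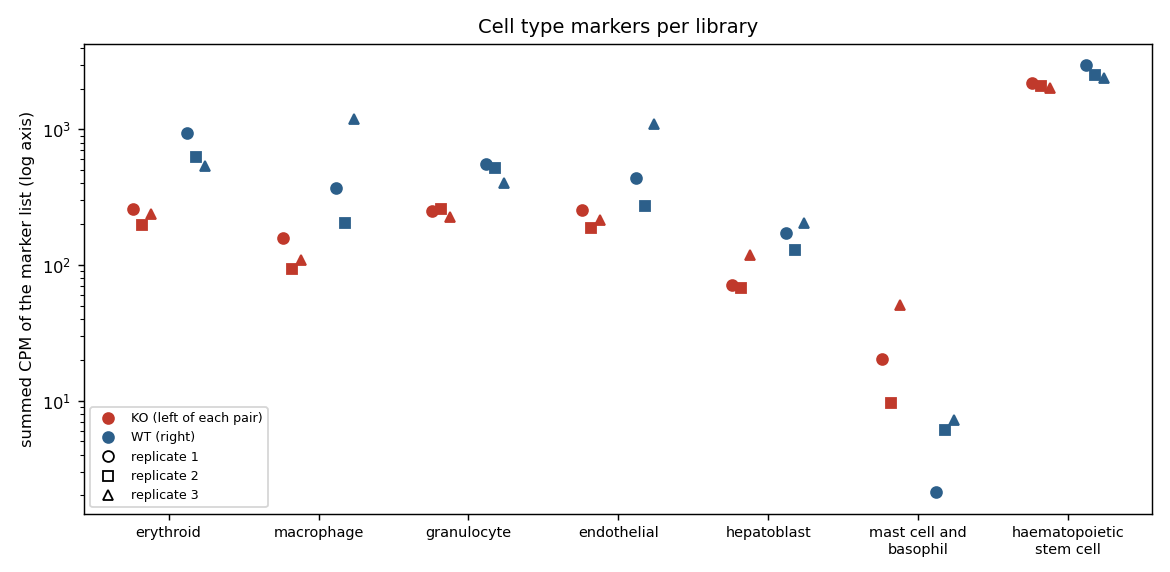
Summed CPM of the markers of 7 cell types in each library (log axis), KO left and WT right of each pair, with a symbol per replicate. The mast cell and basophil sums of all 3 KO libraries lie above those of all 3 WT libraries, and the sums of the other 6 lists lie below them.

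Genes that supply or regulate the enzymes were read in 9 lists, of which 82 of 88 genes were tested. Of these, 9 were lower and 6 higher, which is 11.0% and 7.32%, with a median log2 fold change of -0.28. Against the 4.99% and 6.41% over all genes, the lower share was larger and the higher share similar, without a test of either.

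In thioredoxin recycling, 1 of 10 genes was higher and 2 lower. Txnip, which binds and inhibits thioredoxin, had 186, 163 and 173 CPM in KO libraries and 381, 301 and 286 CPM in WT libraries, with no overlap, and its log2 fold change was -0.89 (edgeR, adjusted p = 6.63e-05). The sestrins, stress-induced regulators of mTORC1 signalling and of peroxide levels, moved apart. Sesn2 had 23.9, 24.8 and 34.5 CPM in KO libraries and 3.11, 6.05 and 6.86 CPM in WT libraries, a log2 fold change of 2.37 (edgeR, adjusted p = 0.000337). Sesn1 had 99.7, 93.5 and 71.3 CPM in KO libraries and 170, 140.5 and 143 CPM in WT libraries, at -0.78 (edgeR, adjusted p = 0.00191). Srxn1, the sulfiredoxin that repairs over-oxidised peroxiredoxins, was at -1.18 and missed the threshold (edgeR, adjusted p = 0.0899). The thioredoxins and thioredoxin reductases Txn1, Txn2, Txnrd1, Txnrd2 and Txnrd3 were not called in either direction.

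In the glutathione and glutaredoxin list, 1 of 12 genes was lower and 0 higher, with 0 higher at an unadjusted p under 0.05 and 0 by DESeq2. The lower gene was Gsto1, a glutathione transferase, at -0.72 (edgeR, adjusted p = 0.0298). Its groups overlapped, and its adjusted p reached 0.191 with 1 library left out, with the call lost without KO replicate 2, KO replicate 3 or WT replicate 1. With implied length offsets it was at -0.59 and missed the threshold (adjusted p = 0.0896). Among other peroxide and superoxide enzymes, 1 of 6 was lower. This was Cat, catalase, which had 144, 127 and 112 CPM in KO libraries and 219, 169 and 177 CPM in WT libraries, all KO values below all WT values. Its log2 fold change was -0.56 (edgeR, adjusted p = 0.0109), and the call was lost without KO replicate 2, KO replicate 3 or WT replicate 1.

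Gpx1 and Gpx4 need the selenocysteine machinery. Of 8 genes of selenoprotein synthesis, 1 was higher: Secisbp2, which binds the selenocysteine insertion element, had 36.1, 44.2 and 39.4 CPM in KO libraries and 19.9, 21.9 and 16.2 CPM in WT libraries. Its log2 fold change was 1.05 (edgeR, adjusted p = 0.00939), with 0.063 without KO replicate 2. Of 11 other selenoprotein genes, 0 were called in either direction by edgeR, 3 were lower at an unadjusted p under 0.05, and DESeq2 called 2 lower. The smallest p among them was that of Sep15, at -0.41 (edgeR, adjusted p = 0.0599).

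Among NRF2 and FOXO regulators, 1 of 10 was higher and 0 lower, with 2 lower at an unadjusted p under 0.05 and 0 lower by DESeq2. Nfe2l1, a relative of NRF2 in the same factor family, was at 0.60 (edgeR, adjusted p = 0.0175). Its call was lost without KO replicate 2, KO replicate 3 or WT replicate 1, and it was 0.44 with implied length offsets (adjusted p = 0.0761). Foxo3, a FOXO factor needed to keep oxidants low in blood stem cells, had 139, 110.2 and 145 CPM in KO libraries and 185, 159 and 163 CPM in WT libraries. Its log2 fold change was -0.36 (edgeR, adjusted p = 0.0926), and -0.47 with implied length offsets (adjusted p = 0.0309).

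Of 16 NRF2 target genes, 1 was higher and 3 lower, against 6.41% and 4.99% of all genes tested. At an unadjusted p under 0.05, 1 was higher and 5 lower (edgeR), and DESeq2 called 1 higher and 4 lower. The median log2 fold change of this list was -0.37, against -0.02 over all genes. Slc7a11, the cystine importer that feeds glutathione synthesis and is also a target of ATF4, had 28.8, 28.6 and 29.3 CPM in KO libraries and 2.81, 1.30 and 1.70 CPM in WT libraries. The groups stood far apart, and its log2 fold change was 3.90 (edgeR, adjusted p = 2.88e-06). Fth1, the ferritin heavy chain, had 447, 398 and 379 CPM in KO libraries and 637, 653 and 861 CPM in WT libraries, at -0.81 (edgeR, adjusted p = 0.000108), and missed the threshold with limma on RPKM values (adjusted p up to 0.213). Blvrb, a biliverdin and flavin reductase abundant in red cells, was at -1.92 (edgeR, adjusted p = 0.00159). G6pdx, the NADPH-making entry enzyme of the pentose phosphate pathway, was at -0.65 (edgeR, adjusted p = 0.0356), a call that was lost in each of the 6 fits without 1 library.

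Of 9 genes that supply NADPH, 2 were higher and 2 lower. The higher genes were mitochondrial folate enzymes. Mthfd2 had 198, 204 and 238 CPM in KO libraries and 20.8, 47.9 and 38.1 CPM in WT libraries, at 2.58 (edgeR, adjusted p = 7.93e-05). Aldh1l2 had 29.6, 45.3 and 48.5 CPM in KO libraries, while 5 counts in WT replicate 2 were its only counts in WT, and its fitted log2 fold change was 8.01 (edgeR, adjusted p = 3.71e-07) and 12.05 without WT replicate 2. The lower genes were G6pdx and Idh1, the cytosolic NADP-linked isocitrate dehydrogenase. Idh1 had 15.4, 10.5 and 13.4 CPM in KO libraries and 39.6, 24.8 and 54.0 CPM in WT libraries, at -1.59 (edgeR, adjusted p = 0.0017). Of 7 tested NADPH oxidase genes, 1 was lower and 0 higher, with 0 higher at an unadjusted p under 0.05 and 0 by DESeq2. The lower gene was Rac1, a GTPase of that complex, at -0.42 (edgeR, adjusted p = 0.018), a call lost without KO replicate 1, KO replicate 2, KO replicate 3 or WT replicate 3 and with implied length offsets, which gave -0.33 (adjusted p = 0.0767).

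**Figure D5:**
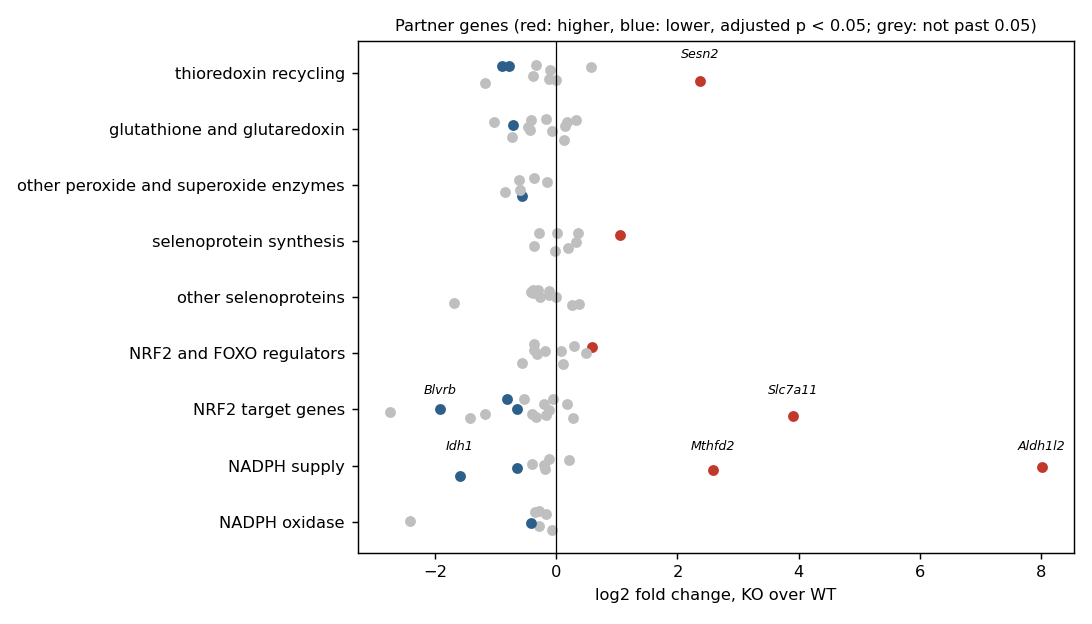
Log2 fold change of KO over WT (edgeR) for the tested genes of each list of enzyme partners and regulators; red points are higher and blue points lower past the threshold, and grey points did not pass it. Aldh1l2 at 8.01, Slc7a11 at 3.90, Mthfd2 at 2.58 and Sesn2 at 2.37 lie far to the right, and the median of all points is -0.28.

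The genes whose levels over the 6 libraries were most like those of Gpx1, by the root mean square difference of mean-centred log2 CPM, were Prdx2 at 0.066, Manf at 0.069 and Psap at 0.069. For Prdx1 they were Usmg5 at 0.044, Rap1b at 0.079 and Fth1 at 0.082. Of all other genes tested, the one nearest to Gpx1 was thus another of the cytosolic peroxide-reducing enzymes, though Manf and Psap were nearly as close. The 6 libraries hold the group difference as well, so genes lower by a like amount rank high on this measure. With implied length offsets, Usmg5 was at -0.04 (edgeR with offsets, adjusted p = 0.94) and Rap1b at -0.46 (adjusted p = 0.0935). Fth1 was at -0.77 in that fit (adjusted p = 0.000191).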

How the data were processed

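The authors deposited 2 tables with a column for each library: whole-number read counts by gene symbol, and RPKM values, which are reads scaled by transcript length and library size. Per the submitters' processing notes, TopHat, Cufflinks and the mm9 build were used. Per the labels' protocols, libraries were made with a low-input kit that marks the strand (SMARTer Pico) and sequenced on a NextSeq500. Versions, read counter, annotation, strand setting and the handling of multiply mapped reads are not stated in the sources used here. RefSeq lists pseudogenes of Prdx1, Prdx2, Prdx6 and Gpx4, and none of them has a row of its own in the count table, so reads from them cannot be told apart from those of the members.

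Tests on the deposited counts used edgeR 4.0.16 under R 4.3.3 (TMM scaling, filterByExpr on group, robust quasi-likelihood F test, group only), with Benjamini-Hochberg adjustment over 12204 genes and a threshold of 0.05. The fit was tested on simulated counts. The SE was |log2 fold change| over the root of F. Implied lengths were counts over RPKM times library total, pooled over 6 libraries and kept between 100 and 50000 nt. Alternatives were DESeq2 1.42.0, limma 3.58.1 (voom, and log2 RPKM with pseudocounts of 1 and 0.1), other scaling, no filter, length and GC offsets, a replicate block and leaving out each library. The fits with a Y-linked covariate and with implied lengths were chosen after seeing the data. Replicate pairs differed by more than counting noise (chi-square per degree of freedom 22.1 to 44.8), and each library counted as 1 replicate. Total counts of 10191354 to 14590844 set the precision, and PCR reads without molecular identifiers are not independent molecules.

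The members and all lists were chosen with earlier results of these data known. All members were described. Of each partner list at most 4 genes with the smallest p were named, with Uqcrfs1 as the check of the knockout and the 3 genes most alike to Gpx1 and to Prdx1. Marker genes were named as examples. Promoters were read from RefSeq windows in GRCm38.p6, with 9 of 10 members matched, and none of their coordinates were joined to mm9 data.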

Additional observations from a re-analysis of the deposited data

How the results depend on the processing

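In the 19 alternative settings all 10 members kept a negative log2 fold change, and Gpx1 and Prdx2 each passed the threshold in 18, Prdx1 in 17, Prdx4 in 15 and Sod1 in 8. The number of members lower, 5 as reported, was 0 with limma on log2(RPKM + 1) and no filter, 2 with implied length and GC offsets, and 3 to 5 when 1 library was left out. Without KO replicate 2 it was 3. Over all genes, limma on log2(RPKM + 1) called 348 higher and 235 lower, with a pseudocount of 0.1 it called 337 and 223, and with no filter 116 and 50, against 782 and 609 by edgeR. Leaving out 1 library gave 448 to 717 genes higher and 264 to 546 lower, with the fewest without KO replicate 2. The cause of these differences was not tested, beyond fewer libraries per fit. The replicate numbers did not pair the libraries: deviations of same-numbered KO and WT libraries correlated at 0.022, 0.012 and -0.003. With the replicate block, 762 genes were higher and 579 lower and 5 members were lower, and with the block and annotated length and GC offsets 3 members were lower, with Prdx4 at an adjusted p of 0.0505 and Sod1 at 0.2. All such correlations between a KO and a WT library lay between -0.023 and 0.022, so their order says little about pairing. Several falls lie near what 3 libraries a group can separate, and Prdx3 and Prdx5, with the fewest counts, had the widest intervals.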
